A study of Mus musculus with 8 samples.

Results

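The Schlafen family was followed in bulk RNA of 4T1 tumors, a mouse triple-negative breast carcinoma. The members were taken by gene name, as every row of the count table named Slfn1, Slfn2, Slfn3, Slfn4, Slfn5, Slfn8 or Slfn9, and all 7 were found among 54532 genes. The tumors had grown under the skin of female BALB/cJ mice that were 6 weeks old when injected with 4T1-FLuc cells, a luciferase-tagged form of the line (the labels name it 4T1 only). Each group had 4 tumors from separate mice, which were harvested at the study endpoint after intravenous treatment every 4 days for 5 courses, and mice with ulcerated tumors had been removed earlier. The control group received saline, which one label field calls PBS. The second group received 16 mg/kg of mAb-DXd/IMQ, a humanized antibody to CD276 that carries both DXd, an inhibitor of topoisomerase I, and an imidazoquinoline agonist of Toll-like receptors 7 and 8. No group with a single payload or with the bare antibody was analysed here, so the parts of the conjugate cannot be told apart. Total counts ran from 45019927 to 69582375 in saline tumors and from 34591912 to 51625237 in mAb-DXd/IMQ tumors, so the treated libraries were shallower on the whole.

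Schlafen genes encode a family of proteins that expanded in rodents and are induced by type I interferons in many cell types. The mouse proteins fall into short forms (Slfn1 and Slfn2), intermediate forms (Slfn3 and Slfn4) and long forms that add a helicase-like domain (Slfn5, Slfn8 and Slfn9). They are best known in lymphocytes and myeloid cells, where Slfn2 keeps T cells and monocytes quiescent, and in antiviral defense through cleavage of transfer RNA. The human relative SLFN11, which acts at stalled replication forks, is a known marker of the sensitivity of tumor cells to topoisomerase I inhibitors and other DNA-damaging drugs, and the long mouse genes Slfn8 and Slfn9 are its nearest mouse relatives. Both payloads of the conjugate therefore touch pathways in which the family is known, and the comparison asks how the level of each member compared between the groups.

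All 7 genes lay in one cluster of 263.8 kb at chr11:82951349-83215154 (coordinates of the count table, which are those of GRCm38). Slfn1 to Slfn5 were on the plus strand, and Slfn8 and Slfn9 on the minus strand. Promoters were looked up in RefSeq (build GRCm38.p6, the C57BL/6J reference and not the BALB/c genome of the tumors), from 250 bases before to 50 bases after each start, and 7 of 7 members had an entry. The core letters of the interferon-stimulated response element, GAAANNGAAA on either strand, were present for 3 of the 7 members (Slfn5, Slfn8 and Slfn9) and for 3.99% of all 27025 genes with a promoter. The first 3 stretches are shown because they hold the interferon letters, in capitals. Levels of Slfn8 and Slfn9 went up and down together among the tumors, whereas those of Slfn5 followed neither (described further on). Capitals on the Slfn8 and Slfn9 lines are the match as read on the opposite strand. The last base of the match lay 146 bases before the start of Slfn5, 39 before that of Slfn8 (the first of 2 listed starts) and 36 before that of Slfn9. The stretches of Slfn8 (chr11:83020824-83020883, minus strand) and Slfn9 (chr11:82991841-82991900, minus strand) lay outside any annotated gene, and that of Slfn5 (chr11:82951922-82951981, plus strand) lay within the annotated bounds of Slfn5 and its antisense gene Slfn5os but in no exon.
Slfn5: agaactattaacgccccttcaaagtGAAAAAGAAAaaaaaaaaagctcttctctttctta
Slfn8: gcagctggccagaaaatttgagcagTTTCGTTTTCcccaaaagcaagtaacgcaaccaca
Slfn9: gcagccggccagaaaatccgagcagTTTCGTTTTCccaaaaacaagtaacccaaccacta

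The other 4 promoters had no such match but shared a run of 9 bases, found after the sequences had been seen. ACTTCCTGG was the longest run common to Slfn1, Slfn2, Slfn3 and Slfn4, and it was present on either strand for 4 of 7 members and for 0.999% of all genes with a promoter. Its presence in those 4 was fixed by the way it was found, so the 4 of 7 is not a result about the members. It is shown in capitals, and it was absent from the windows of Slfn5, Slfn8 and Slfn9. Slfn1 and Slfn4 shared 15 bases around it, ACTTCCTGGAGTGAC. Slfn8 and Slfn9 shared a longest run of 20 bases, TCTGGCAGCATGCCTGCAGC. The 4 stretches lay outside annotated genes on the plus strand, at chr11:83116721-83116779 (Slfn1), chr11:83065032-83065090 (Slfn2), chr11:83191263-83191321 (Slfn3) and chr11:83175088-83175146 (Slfn4). These matches describe letters only, and no binding was measured.
Slfn1: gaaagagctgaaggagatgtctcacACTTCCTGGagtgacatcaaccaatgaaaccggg
Slfn2: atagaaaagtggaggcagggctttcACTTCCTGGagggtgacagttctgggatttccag
Slfn3: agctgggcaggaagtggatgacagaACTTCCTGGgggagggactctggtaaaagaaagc
Slfn4: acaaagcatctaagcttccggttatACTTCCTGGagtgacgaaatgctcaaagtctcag

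No Schlafen gene was called different between mAb-DXd/IMQ and saline tumors, although 6 of the 7 had a higher average after treatment. Log2 fold changes (mAb-DXd/IMQ over saline) ran from -0.12 for Slfn3 to 0.90 for Slfn4, with a median of 0.33. A gene was called at a Benjamini-Hochberg FDR under 0.05 with an absolute log2 fold change over 0.58 in edgeR's quasi-likelihood test, adjusted over all genes tested. All 7 members passed the filter on low counts. Of 18511 genes tested, 197 (1.06%) were called, 101 higher (0.546%) and 96 lower (0.519%), so that 0 of 7 lay near the share of the whole table. At an unadjusted p under 0.05 the same test gave 0 of 7 members, against 18.9% of all genes. DESeq2 and limma-voom also called 0 of 7, and at an unadjusted p under 0.05 DESeq2 gave 1 (Slfn1) and limma-voom 0. The groups overlapped for all 7 members, whereas 13.1% of all genes had groups that did not overlap. Among all genes the median log2 fold change was 0.02 and 52.6% had a value above 0. The sign of each member was the same under scaling by library size, upper quartile and RLE factors. The number of calls over all genes varied with the tumor left out, and fewer tumors enter such fits. It was 10 without saline replicate 3, 11 without saline replicate 4 and 12 without mAb-DXd/IMQ replicate 4. There were 76 without mAb-DXd/IMQ replicate 2, 88 without mAb-DXd/IMQ replicate 3 and 111 without saline replicate 2. It hardly moved without saline replicate 1 (203) or mAb-DXd/IMQ replicate 1 (190). With upper quartile factors 145 genes were called higher and 73 lower (66.5% higher, against 51.3% with TMM factors).

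**Figure D1:**
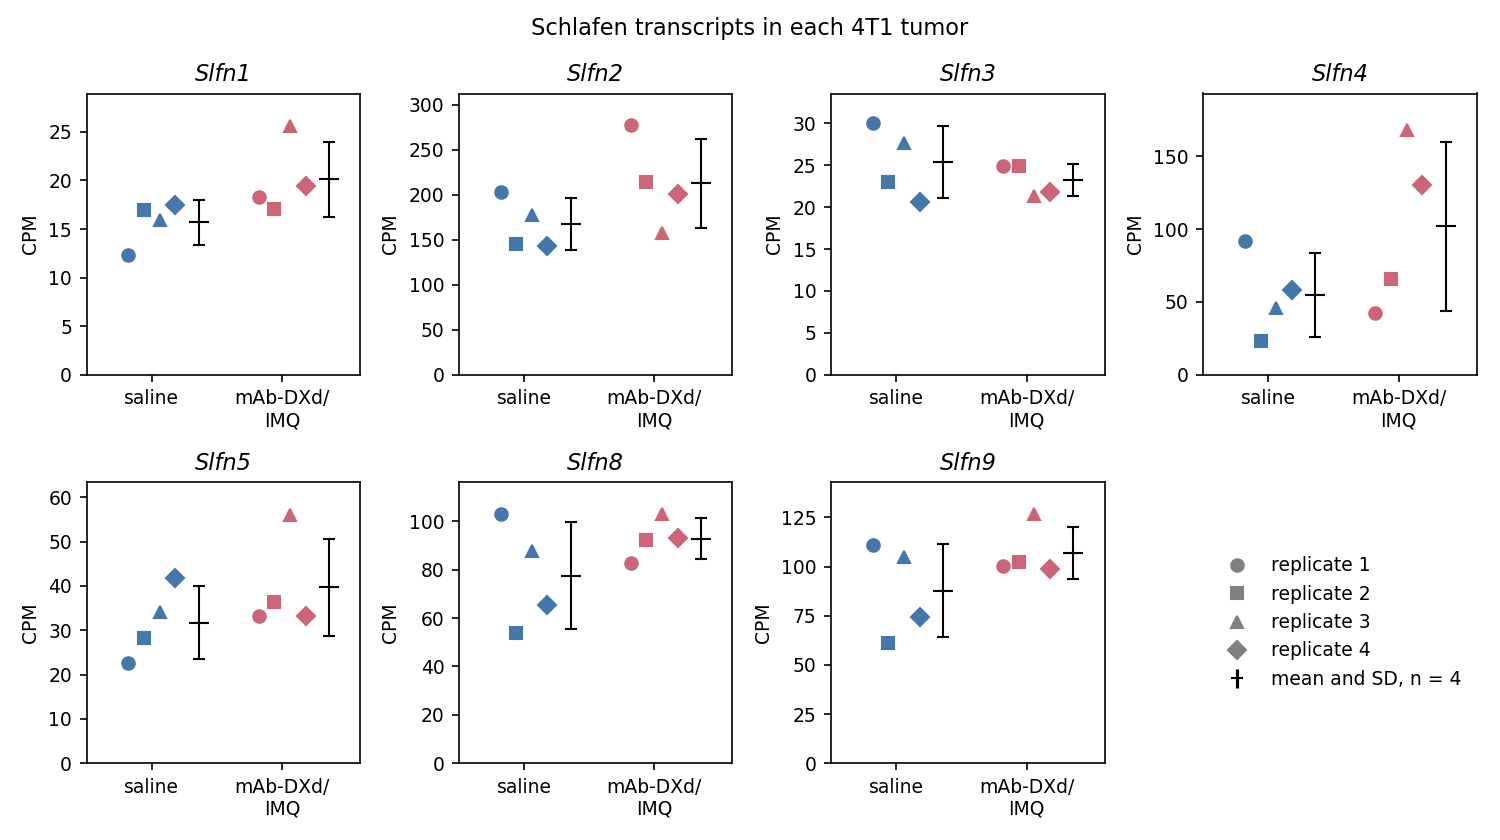
CPM (vertical axis, on library sizes with TMM factors) of the 7 Schlafen genes in each tumor, with marker shapes for the replicates and black bars for the mean and SD of 4 tumors. The groups overlap in every panel, and Slfn4 has the widest spread, from 23.3 to 168 CPM.

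The short members are described first. Slfn1 (ENSMUSG00000078763, chr11:83116849-83122670), known for slowing thymocyte growth, was at 12.3, 17.0, 15.9 and 17.5 CPM (counts per mega-count of library size, with TMM factors) in saline replicates 1 to 4. It was at 18.3, 17.1, 25.7 and 19.4 CPM in mAb-DXd/IMQ replicates 1 to 4. In the mAb-DXd/IMQ group, 3 of 4 tumors were above every saline tumor, and saline replicate 1 was the lowest of all 8. The means were 15.7 ± 2.36 (SD, n = 4) and 20.1 ± 3.82 CPM (SD, n = 4), a log2 fold change of 0.36 ± 0.17 (SE) with a 95% interval from -0.01 to 0.74 and an edgeR adjusted p of 0.273. Without mAb-DXd/IMQ replicate 3 the log2 fold change was 0.22.

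Slfn2 (ENSMUSG00000072620, chr11:83065112-83070678), which T cells and monocytes need to stay quiescent, had the most CPM per kilobase of the members. Its levels were 203, 145, 177 and 143 CPM in the saline tumors and 277, 214, 157 and 201 CPM in the mAb-DXd/IMQ tumors, in the order of the replicates. The highest value was mAb-DXd/IMQ replicate 1, whereas mAb-DXd/IMQ replicates 3 and 4 lay inside the saline range. Means were 167 ± 28.8 and 212 ± 49.5 CPM (SD, n = 4 each). The fold change was 1.28 (95% interval 0.977 to 1.67), with an edgeR adjusted p of 0.307. Leaving out mAb-DXd/IMQ replicate 1 gave a log2 fold change of 0.20, the lowest of its 20 alternatives.

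Slfn3 (ENSMUSG00000018986, chr11:83191330-83215154), an intermediate member studied in T cells and gut epithelium, was the 1 member of 7 with a lower average after treatment, under every scaling tried. It was at 30.1, 22.96, 27.7 and 20.7 CPM in saline tumors and at 24.9, 24.9, 21.4 and 21.8 CPM in mAb-DXd/IMQ tumors. All 4 treated values lay within the saline range. The log2 fold change was -0.12 ± 0.14 (SE), and its interval allowed a fold change from 0.743 to 1.14 (edgeR adjusted p = 0.687). It was -0.03 without saline replicate 1 and -0.20 without saline replicate 4.

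Slfn4 (ENSMUSG00000000204, chr11:83175186-83190216), a gene of myeloid cells and macrophage activation, had the largest difference and the widest spread of the family. It was at 91.7, 23.3, 45.5 and 58.5 CPM in saline tumors and at 42.7, 66.0, 168 and 130 CPM in mAb-DXd/IMQ tumors. mAb-DXd/IMQ replicates 3 and 4 stood above every saline tumor, and mAb-DXd/IMQ replicate 1 was below 3 of the 4 saline tumors. The means were 54.7 ± 28.6 and 102 ± 57.8 CPM (SD, n = 4 each), a coefficient of variation of 52.2% and 56.8%. The estimated fold change of 1.87 had a 95% interval from 0.942 to 3.71 and an edgeR adjusted p of 0.306, so the interval held both no change and a change of over 3-fold. The value depended on single tumors, with a log2 fold change of 0.55 without mAb-DXd/IMQ replicate 3 and 1.27 without saline replicate 1.

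The long members carry the helicase-like domain. Slfn5 (ENSMUSG00000054404, chr11:82951349-82964840), an interferon-induced nuclear member, was at 22.6, 28.3, 34.2 and 41.7 CPM in saline tumors and at 33.3, 36.4, 56.0 and 33.2 CPM in mAb-DXd/IMQ tumors. Of the treated tumors, replicate 3 alone exceeded the saline range, and the log2 fold change of 0.33 ± 0.21 (SE, edgeR adjusted p = 0.437) was 0.12 without that tumor.

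Slfn8 (ENSMUSG00000035208, chr11:83002158-83020810) and Slfn9 (ENSMUSG00000069793, chr11:82978390-82991830) are neighbors on the minus strand. Slfn8 was at 103, 53.7, 87.8 and 65.5 CPM in saline tumors and at 83.0, 92.4, 103 and 93.1 CPM in mAb-DXd/IMQ tumors. Slfn9 was at 111, 61.2, 105 and 74.2 CPM in saline tumors and at 100.1, 102, 127 and 98.6 CPM in mAb-DXd/IMQ tumors. In both genes saline replicates 2 and 4 were the lowest of the 8 tumors, and the treated tumors sat close together, with coefficients of variation of 8.9% for Slfn8 and 12.4% for Slfn9 against 28.6% and 27.2% in saline. No test of that difference in spread was made. The log2 fold change was 0.27 for Slfn8 (95% interval -0.13 to 0.67, edgeR adjusted p = 0.463) and 0.29 for Slfn9 (95% interval -0.11 to 0.69, edgeR adjusted p = 0.423). Without saline replicate 2 they were 0.13 and 0.15, and without saline replicate 1 they were 0.43 and 0.42.

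**Figure D2:**
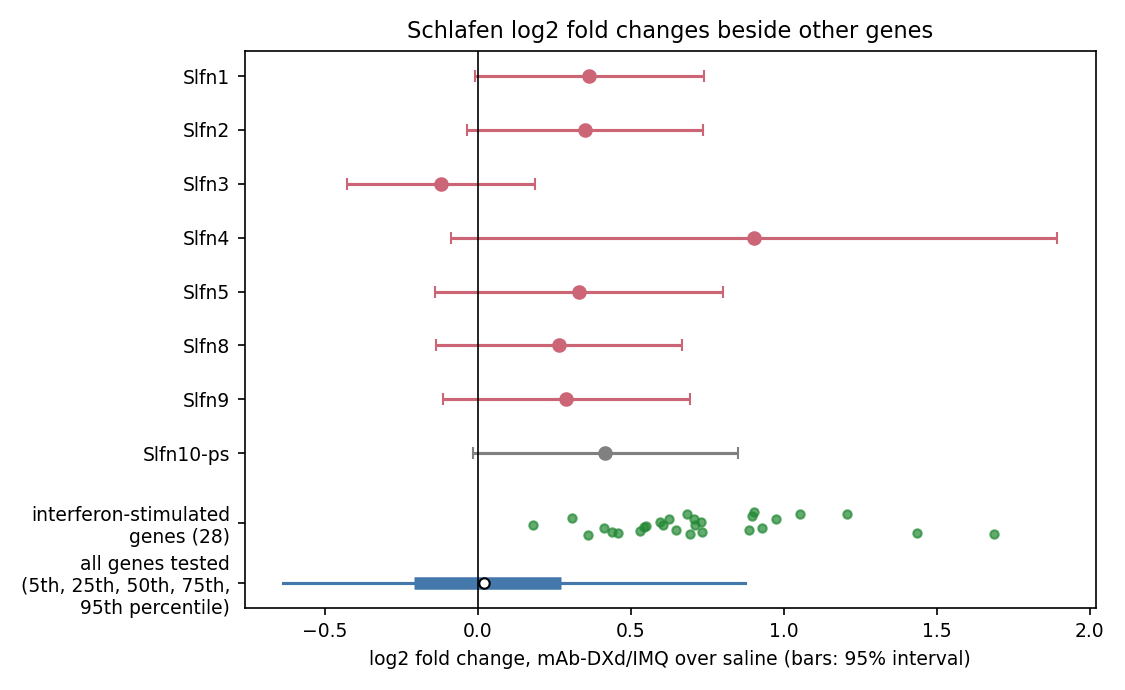
Log2 fold change of mAb-DXd/IMQ over saline (horizontal axis) with 95% intervals for the 7 members and Slfn10-ps, above single points for the 28 interferon-stimulated genes and the percentiles of all 18511 genes tested (white point, median; thick bar, 25th to 75th percentile; thin line, 5th to 95th). Every Schlafen interval includes 0.

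The table held 4 other rows whose names begin with Slfn. The pseudogene Slfn10-ps was the only one tested, at 6.91 ± 0.768 CPM in saline and 9.18 ± 1.83 CPM in mAb-DXd/IMQ tumors (SD, n = 4 each), with a log2 fold change of 0.42 and an edgeR adjusted p of 0.28. Slfn14, a long member of reticulocytes and platelets, had 6 counts, all in saline replicate 2. The antisense gene Slfn5os was assigned 9 counts over the 8 tumors. Slfnl1, on chromosome 4, had 5 counts in saline replicate 2 and 11 in mAb-DXd/IMQ replicate 3 (0.239 CPM), and 0 in the others. At these depths 3 counts were worth between 0.0441 and 0.0835 CPM in a tumor, and these 3 genes did not pass the filter, so no fold change is given. That limit covers counting error only.

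Members of the family resemble each other, so reads could have been assigned to the wrong gene. Of all 50-base windows in the GENCODE M21 transcripts of Slfn8, 9.3% were also found in Slfn9 and 10.1% in Slfn10-ps. For Slfn3, 7.39% were found in Slfn4, and for Slfn2 4.27% were found in Slfn4, whereas for Slfn1 0.606% were found in any other Schlafen transcript. For Slfn5, 7.38% were found in its antisense gene Slfn5os. With 100-base windows the share found in any of them was 6.16% for Slfn5 (all with Slfn5os), 3.71% for Slfn9, 3.38% for Slfn8, 0.128% for Slfn2, 0.0493% for Slfn4 and 0% for Slfn1 and Slfn3. By this comparison with Schlafen-named transcripts, most of each transcript was not shared. How the authors treated reads with several matches was not given in the sources used here, and the values of members with shared windows are uncertain to that extent. Summing Slfn3 and Slfn4 before the fit gave a log2 fold change of 0.65 (95% interval -0.09 to 1.39, edgeR adjusted p = 0.326), which was 0.38 without mAb-DXd/IMQ replicate 3 and 0.92 without saline replicate 1. Summing Slfn8, Slfn9 and Slfn10-ps gave 0.29 (95% interval -0.11 to 0.68, edgeR adjusted p = 0.418), which was 0.15 without saline replicate 2 and 0.43 without saline replicate 1. Among genes that overlap members, Gm20234 over Slfn2 had 0.436% of the counts of Slfn2, Slfn5os 0.0634% of those of Slfn5 and Mir7679 0.176% of those of Slfn9. Whether counting used strand was not stated. Where Slfn2 and Slfn5 overlap their antisense genes, reads of the 2 strands therefore cannot be told apart. These counts set no limit on what the antisense genes added there.

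Levels between genes were compared per length, as CPM per kilobase of the deposited gene length. Slfn2 was the highest member in 8 of 8 tumors, at 100.4 ± 17.3 CPM per kilobase in saline and 128 ± 29.7 in mAb-DXd/IMQ tumors (SD, n = 4 each). In saline it was followed by Slfn8 (19.0 ± 5.42), Slfn9 (14.7 ± 4.01), Slfn4 (13.8 ± 7.21), Slfn1 (8.41 ± 1.26), Slfn3 (7.43 ± 1.26) and Slfn5 (5.01 ± 1.29). Slfn8 was above Slfn9 in 8 of 8 tumors. Slfn9 was above Slfn4 in 2 of 4 saline tumors, and Slfn4 above Slfn1, Slfn1 above Slfn3 and Slfn3 above Slfn5 in 3 of 4, so those neighbors did not separate beyond their spread. In mAb-DXd/IMQ tumors Slfn4 (25.7 ± 14.6) came second by its mean, above Slfn8 (22.7 ± 2.02) in 2 of 4 tumors, and the rest kept the order Slfn9 (17.9 ± 2.23), Slfn1 (10.8 ± 2.05), Slfn3 (6.81 ± 0.565) and Slfn5 (6.28 ± 1.73), with Slfn3 above Slfn5 in 3 of 4 tumors.

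Added over the 7 members, the family reached 574, 352, 493 and 421 CPM in saline tumors and 579, 553, 659 and 598 CPM in mAb-DXd/IMQ tumors. The means differed by 137 CPM, at 459.9 ± 95.5 and 597 ± 44.8 CPM (SD, n = 4 each), with mAb-DXd/IMQ replicate 2 below saline replicate 1. This sum was not tested, because the members were chosen with results known. Without saline replicate 2, the lowest tumor, the difference was 101 CPM, and without saline replicate 1 it was 175 CPM. Per kilobase, Slfn2 made up 59.7 ± 2.93% of the family after saline and 58.3 ± 10.9% after mAb-DXd/IMQ (SD, n = 4 each), where it ran from 44.5% in replicate 3 to 70.4% in replicate 1. Slfn4 made up 19.99% of the family in mAb-DXd/IMQ replicate 3 and 4.55% in mAb-DXd/IMQ replicate 1. The share of Slfn3 was 4.24, 4.92, 4.54 and 4.01% in saline and 3.08, 3.52, 2.95 and 2.97% in mAb-DXd/IMQ tumors, the one share of 7 whose groups did not overlap. Among all genes, 13.1% had levels whose groups did not overlap, but no such value was computed for shares, so the 1 of 7 has no like background. The levels of Slfn3 itself overlapped between the groups while the family sum was higher after treatment, and no test of shares was made.

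**Figure D3:**
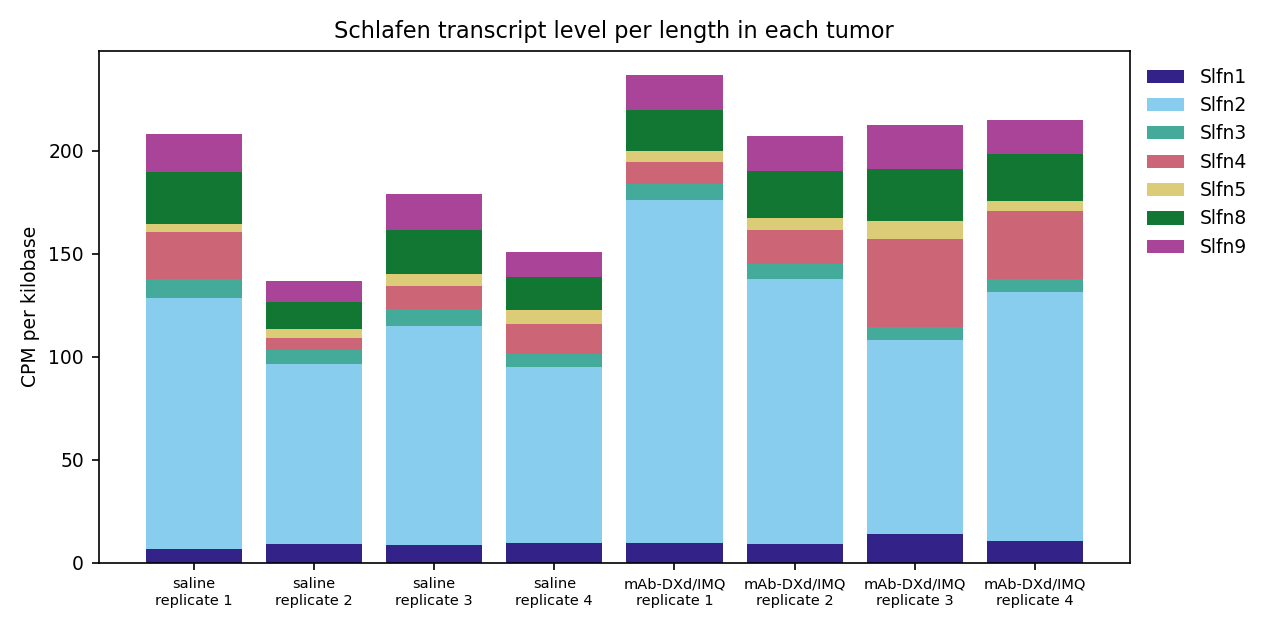
Stacked CPM per kilobase (vertical axis) of the 7 Schlafen genes in each of the 8 tumors. Slfn2 is the largest piece of every bar, and the Slfn4 piece is largest in mAb-DXd/IMQ replicate 3.

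Within the groups the members did not vary as one block. The SD of log2 CPM around the group mean was 0.87 for Slfn4, at percentile 91.0 among all genes tested, whereas it was 0.19 for Slfn3, at percentile 28.2. For the other 5 members it lay between 0.25 and 0.37. Saline replicate 1 was the highest saline tumor for Slfn2, Slfn3, Slfn4, Slfn8 and Slfn9 and the lowest for Slfn1 and Slfn5. mAb-DXd/IMQ replicate 3 was the highest treated tumor for Slfn1, Slfn4, Slfn5, Slfn8 and Slfn9 and the lowest for Slfn2 and Slfn3. That was the reverse of saline replicate 1 for Slfn1, Slfn2, Slfn3 and Slfn5, and the same for Slfn4, Slfn8 and Slfn9.

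Correlations were computed for all 21 pairs of members, on log2 CPM minus the group mean over 8 tumors, with exact two-sided permutation within groups (576 arrangements). None of the 21 pairs passed after Benjamini-Hochberg adjustment over the pairs, the lowest adjusted p being 0.0638. Slfn8 and Slfn9 had a Pearson r of 0.963 (exact permutation p = 0.0104, adjusted p = 0.0638) and a Spearman rho of 0.90 on ranks within groups (exact permutation p = 0.0243, adjusted p = 0.102). Without saline replicates 1 and 2, the tumors farthest from the median of Slfn8, r was 0.92. The ratio of Slfn9 to Slfn8 CPM stayed between 1.06 and 1.23 in the 8 tumors, while Slfn8 itself varied from 53.7 to 103 CPM. This is the pair with similar promoter stretches, and also a pair with shared transcript windows, and the part of either in the correlation was not tested. Slfn5, whose promoter also holds the interferon letters, had r = -0.114 with Slfn8 and r = 0.0455 with Slfn9. Slfn1 and Slfn4, which share 15 promoter bases, had r = 0.124.

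Slfn2 and Slfn3 also varied in the same direction, with r = 0.795 (exact permutation p = 0.00868, adjusted p = 0.0638) and rho = 0.90 (exact permutation p = 0.0243, adjusted p = 0.102). Without mAb-DXd/IMQ replicates 1 and 3 their r was 0.957. Slfn1 varied against Slfn2, with r = -0.862 (exact permutation p = 0.0122, adjusted p = 0.0638), rho = -0.90 (exact permutation p = 0.0243, adjusted p = 0.102) and r = -0.71 without saline replicate 1 and mAb-DXd/IMQ replicate 3. Slfn1 and Slfn3 gave r = -0.785 and rho = -1 (exact permutation p = 0.00347 for each, adjusted p = 0.0638 and 0.0729), and r = -0.75 without the same tumors. Tumors with more Slfn1 than their group mean thus tended to have less Slfn2 and Slfn3. Slfn1 and Slfn5 had r = 0.855 (exact permutation p = 0.033, adjusted p = 0.116), rho = 0.60 (exact permutation p = 0.212, adjusted p = 0.494) and r = 0.602 without the same tumors. For Slfn4 and Slfn8, r = 0.734 (exact permutation p = 0.0226, adjusted p = 0.0948) and rho = 0.90 (exact permutation p = 0.0243, adjusted p = 0.102), and r dropped to 0.435 without saline replicate 2 and mAb-DXd/IMQ replicate 1, so this relation rested in part on those tumors.

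**Figure D4:**
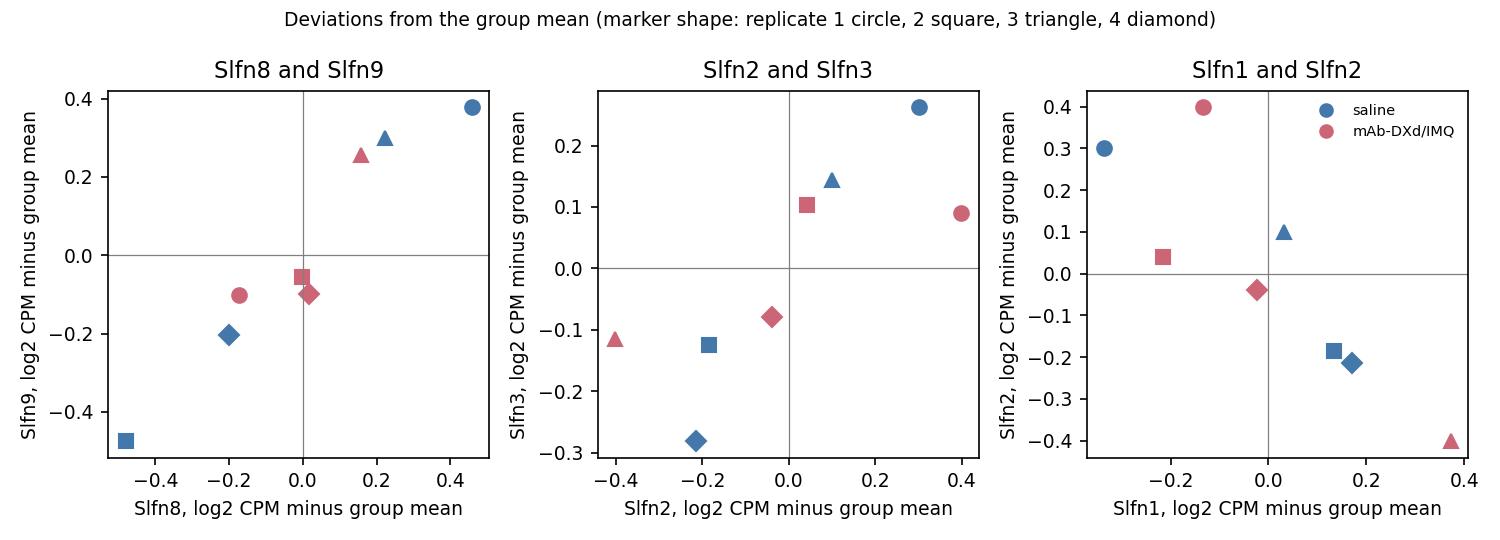
Log2 CPM minus the group mean of one member against another (axes named in each panel), one point per tumor, colored by group. Slfn8 and Slfn9 lie along a rising line (r = 0.963), Slfn2 and Slfn3 rise together (r = 0.795), and Slfn1 and Slfn2 run in opposite directions (r = -0.862).

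By the same deviations, the 3 genes outside the family most like each member were picked among 14638 genes with a mean of at least 1 CPM. These are the extremes of many comparisons over 8 tumors and are given as descriptions. They were Gm6377, Entpd6 and Phldb2 for Slfn1 (r from 0.978 to 0.991) and Ocln, Bri3 and Pkn2 for Slfn2 (r from 0.981 to 0.991). For Slfn3, Ppfia3 (r = 0.961) and Gm4951 (r = 0.957) were among them, and 1 more is not used here. For Slfn4 they were Dqx1, Banp and Serp2 (r from 0.970 to 0.979). Slfn5 was nearest to Ms4a7, Zbtb11 and Dennd5b (r from 0.966 to 0.973). Acap1, Fancd2 and Gsto2 were nearest to Slfn8 (r from 0.983 to 0.992), and Traip, Fancd2 and Slc26a9 to Slfn9 (r from 0.983 to 0.993), so that Fancd2 came up for both. None of the genes named was called between the groups.

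The interferon pathway was examined as the best-known inducer of the family. The ligands were scarce. Ifng was at 2.31 ± 0.695 CPM in saline and 1.14 ± 0.354 CPM in mAb-DXd/IMQ tumors (SD, n = 4 each; log2 fold change -1.02, edgeR adjusted p = 0.145), and Ifnb1 had 40 and 23 counts over each group. The 7 ligands other than Ifng, among them Ifna1, Ifna2 and Ifna5 with 0 counts in every tumor, did not pass the filter. Among 14 receptor and signaling genes 0 were called, 5 were higher and 9 lower, with a median log2 fold change of -0.04, and 1 to 3 of them changed sign under scaling by library size or upper quartile. The largest difference of this list, singled out after its values were seen, was that of the transcription factor Irf7, at 123 ± 49.99 and 271 ± 16.8 CPM (SD, n = 4 each; log2 fold change 1.15, edgeR adjusted p = 0.0591). Groups that did not overlap were found for 2 of 14 genes, Irf7 and the kinase Tyk2 (log2 fold change -0.44, edgeR adjusted p = 0.0824), near the 13.1% of all genes. The most abundant were the kinase Jak2 (551 ± 132 and 403 ± 65.3 CPM) and the transcription factor Irf1 (324 ± 67.9 and 303 ± 19.5 CPM; SD, n = 4 each).

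The 28 interferon-stimulated genes had larger differences than the Schlafen genes by their median, and the lists were not compared by a test. All 28 had a log2 fold change above 0, also under the other scalings, with a median of 0.69 against 0.33 for the 7 members and 0.02 for all genes. By the call rule 2 of 28 rose (0.546% of all genes were called higher), and 11 of 28 had groups that did not overlap (13.1% of all genes). The number called was 8 with DESeq2 (438 of 18511 genes were called higher) and 5 with no filter (167 of 31459). It was 0 with the length correction (63 of 18511). Oas2, an antiviral oligoadenylate synthetase, was at 81.8, 28.03, 92.6 and 78.6 CPM in saline and at 139.6, 210.4, 249.7 and 299.4 CPM in mAb-DXd/IMQ tumors, with a log2 fold change of 1.69 ± 0.34 (SE) and an edgeR adjusted p of 0.0427. Oasl1, a related gene that restrains interferon production, had a log2 fold change of 1.21 ± 0.25 (SE, edgeR adjusted p = 0.0458), from 27.8 ± 10.8 to 63.9 ± 5.9 CPM (SD, n = 4 each). Each call was lost under 9 of 20 alternatives, while the log2 fold change stayed between 1.42 and 1.86 for Oas2 and between 0.98 and 1.37 for Oasl1. Both calls were lost with the length correction, with the replicate block, with these together, and without saline replicate 3 or 4 or mAb-DXd/IMQ replicate 2, 3 or 4. That of Oas2 was also lost without saline replicate 1, and that of Oasl1 without mAb-DXd/IMQ replicate 1.

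The summed level of the interferon-stimulated list was 3620, 1323, 2861 and 2167 CPM in saline tumors and 3942, 3668, 4137 and 4377 CPM in mAb-DXd/IMQ tumors, with Bst2 the most abundant gene and no gene of the list at 0. Saline replicate 2 was the lowest tumor for this sum, as it was for Slfn4, Slfn8, Slfn9 and the summed family. Saline replicate 1 was the highest saline tumor for this sum and for the summed family. The other members went another way, as saline replicate 1 was the lowest tumor for Slfn1 and Slfn5, and saline replicate 4 for Slfn2 and Slfn3. The part of interferon signaling in the Schlafen levels was not tested.

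The targets of the payloads and the antibody were measured next to the family. Cd276 was at 99.3 ± 6.45 and 126 ± 26.0 CPM (SD, n = 4 each; log2 fold change 0.35, edgeR adjusted p = 0.214), and without mAb-DXd/IMQ replicate 3 the log2 fold change was 0.21. Top1 was at 94.5 ± 5.37 and 82.1 ± 10.1 CPM (log2 fold change -0.20, edgeR adjusted p = 0.361), with -0.11 without mAb-DXd/IMQ replicate 4 and -0.11 with the length correction. Neither differed by the call rule. Among 16 genes of TOP1 damage and replication stress 0 were called, 11 were higher and 5 lower (1 or 2 with the other sign by library size or upper quartile), with a median log2 fold change of 0.02. Of these 16 genes 6 had groups that did not overlap, 5 higher and 1 lower, against 13.1% of all genes, and Parp1, the most abundant, was at 97.0 and 97.5 CPM. Among 12 genes of the Toll-like receptor 7 and 8 pathway 0 were called, 2 were higher and 10 lower (1 with the other sign by upper quartile), with a median of -0.25. Of these 12 genes 4 had groups that did not overlap, all lower, against 13.1% of all genes. Its most abundant genes were Nfkb1 (224 ± 40.3 and 159.5 ± 3.15 CPM) and the receptor chaperone Unc93b1 (147 ± 72.1 and 106.5 ± 15.3 CPM; SD, n = 4 each). Tlr8 had a log2 fold change of -0.92 (edgeR adjusted p = 0.183), which was -1.19 and called without saline replicate 1 and -0.56 without saline replicate 2. For Tlr7 it was -0.20 (edgeR adjusted p = 0.823) and turned to 0.20 without saline replicate 2.

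Markers of immune cells, in which the family is best known, were taken as lists, one for each cell type. In bulk RNA, fewer cells of a type and less RNA per cell cannot be told apart. All 8 T cell markers were lower in mAb-DXd/IMQ tumors (median log2 fold change -1.02). By the call rule 2 of 8 fell (0.519% of all genes were called lower), Cd4 (log2 fold change -1.91, from 7.30 ± 2.06 to 1.94 ± 0.208 CPM, edgeR adjusted p = 0.0201) and Cd8a (-1.22, from 34.6 ± 4.62 to 14.8 ± 3.23 CPM, edgeR adjusted p = 0.0201; SD, n = 4 each). The 8 markers summed to 75.8, 113, 107 and 97.8 CPM in saline and 64.7, 53.9, 33.9 and 47.5 CPM in mAb-DXd/IMQ tumors, with Cd8a the most abundant and none at 0. Slfn2, known for T cell quiescence, was not called (log2 fold change 0.35, edgeR adjusted p = 0.307), and the part of T cells in its level was not tested. The calls of Cd4 and Cd8a were both lost under 5 of 20 alternatives. These were the fits without saline replicate 3, saline replicate 4 or mAb-DXd/IMQ replicate 4, and with the replicate block alone or with the length correction. The log2 fold change stayed between -2.09 and -1.77 for Cd4 and between -1.36 and -1.11 for Cd8a. DESeq2 called 5 of the 8 markers, and it called 349 of 18511 genes lower.

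Of 8 neutrophil markers 5 were tested and had a lower average in mAb-DXd/IMQ tumors (median log2 fold change -1.74), and 1 of the 5 fell by the call rule (0.519% of all genes were called lower). It was Csf3r, the receptor for granulocyte colony-stimulating factor (log2 fold change -0.80, from 35.6 ± 4.62 to 20.4 ± 3.56 CPM, SD, n = 4 each, edgeR adjusted p = 0.0402). That call was lost under 11 of 20 alternatives, which were the scalings by library size and upper quartile, the replicate block with and without the length correction, and each tumor left out except mAb-DXd/IMQ replicate 1. The log2 fold change of Csf3r stayed between -0.87 and -0.68 in all 20. The number of neutrophil markers called was 3 with DESeq2 (787 of 18511 genes in all) and 3 with no filter (358 of 31459). It was 2 with the length correction (122 of 18511), with edgeR's newer quasi-likelihood method (291 of 18511) and without saline replicate 2 (111 of 19065). The neutrophil sum was 226, 84.98, 92.7 and 126 CPM in saline and 33.9, 49.3, 51.6 and 66.5 CPM in mAb-DXd/IMQ tumors, with S100a9 the most abundant and with Ly6g, Mpo and Elane too low to test. These 3 had more counts after treatment, at 26 and 31 for Ly6g, 9 and 41 for Mpo and 4 and 11 for Elane over each group. Monocyte and macrophage markers, relevant to Slfn4, gave 0 calls of 8, with all 8 lower on average under TMM but 2 higher under upper quartile scaling. The largest difference of this list, also singled out after its values were seen, was that of Mrc1, at 197 ± 114 and 76.3 ± 4.56 CPM (SD, n = 4 each; log2 fold change -1.37, edgeR adjusted p = 0.0574). Its groups did not overlap, which held for 1 of 8 genes of the list, near the 13.1% of all genes. The most abundant were Lyz2 (1619 ± 1292 and 1569 ± 345 CPM) and Csf1r (289 ± 163 and 175 ± 44.9 CPM; SD, n = 4 each). Their sum, mostly Lyz2, was 706, 4693, 1880 and 2456 CPM in saline and 2471, 1700, 2395 and 1752 CPM in mAb-DXd/IMQ tumors. Saline replicate 1 was thus lowest and saline replicate 2 highest for this sum. None of the T cell and macrophage markers was at 0 in a tumor. The part of these cell types in the Schlafen levels was not tested.

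**Figure D5:**
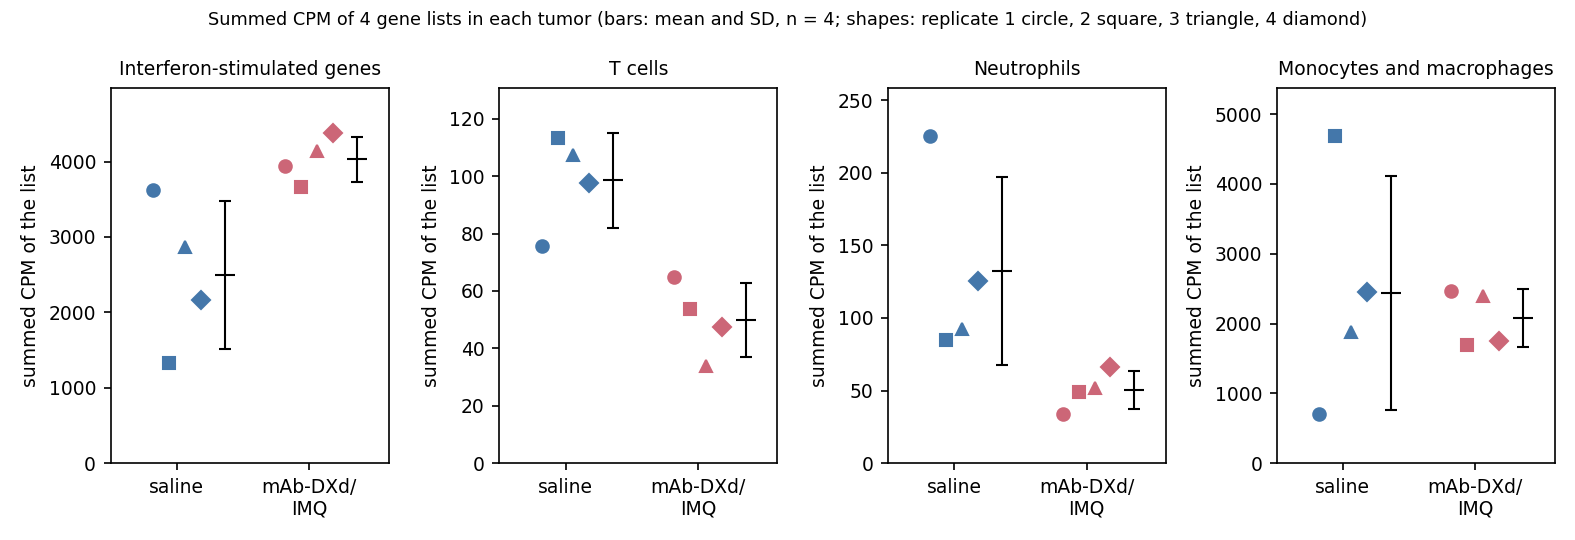
Summed CPM (vertical axis) of 4 lists in each tumor, with marker shapes for the replicates and bars for the mean and SD of 4 tumors. The T cell and neutrophil sums of the 2 groups do not overlap, the interferon-stimulated sums are higher in all mAb-DXd/IMQ tumors, and the macrophage sums overlap.

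The remaining lists held no called gene. Of 6 dendritic cell markers 5 were lower (median log2 fold change -1.10), led in abundance by Itgax (70.9 ± 6.16 and 80.8 ± 31.1 CPM) and Zbtb46 (16.3 ± 1.24 and 13.7 ± 1.24 CPM; SD, n = 4 each). They summed to 83.7, 103, 100.5 and 106 CPM in saline and 81.3, 82.2, 147 and 85.6 CPM in mAb-DXd/IMQ tumors. B cell markers were low, with Cd79b at 0.983 ± 0.391 and 0.338 ± 0.168 CPM (log2 fold change -1.53, edgeR adjusted p = 0.129, groups that did not overlap) and Cd79a at 0.46 ± 0.183 and 0.421 ± 0.161 CPM (SD, n = 4 each), and Ms4a1 was too low to test. Of 4 NK cell markers 3 were higher (median 0.37), with Prf1 at 18.5 ± 9.64 and 35.5 ± 3.64 CPM and Klrk1 at 15.9 ± 4.28 and 11.5 ± 1.46 CPM (SD, n = 4 each). The medians were 0.26 for 3 endothelial markers (Pecam1 and Cdh5 the most abundant) and -0.25 for 3 fibroblast markers (Col1a1 and Pdgfra). The NK cell markers summed to 47.8, 29.9, 37.99 and 41.3 CPM in saline and 53.4, 54.5, 48.8 and 60.0 CPM in mAb-DXd/IMQ tumors, all above the saline range. Prf1 was the most abundant of these markers, and 0 of the 4 had groups that did not overlap (13.1% of all genes). The part of NK cell markers in the Schlafen levels was not tested. The tissue label was checked with 4 carcinoma markers, all higher on average (median 0.31), of which Krt18 was at 638 ± 37.0 and 717 ± 180 CPM and Krt8 at 655 ± 35.1 and 657 ± 170 CPM (SD, n = 4 each). Of the receptors that define the triple-negative class (median -0.02), Pgr was at 0.367 ± 0.281 and 0.576 ± 0.19 CPM, whereas Erbb2 was at 102 ± 19.9 and 101 ± 14.1 CPM and Esr1 at 19.2 ± 1.18 and 15.7 ± 1.64 CPM (SD, n = 4 each), so transcripts of Erbb2 and Esr1 were present in the bulk tissue.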

How the data were processed

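Poly-A RNA of whole tumors was sequenced (Illumina HiSeq X), and raw counts per gene for 8 tumors were deposited by the authors. The submitters' processing notes name HISAT2, HISAT, TopHat2 and build mm39, without versions, but the coordinates in the table are those of GENCODE M21 on GRCm38. The counting program and the use of strand were not given in the sources used here, which limits paralogs and antisense pairs. The counts were tested with edgeR 4.0.16 (R 4.3.3; filterByExpr with a minimum count of 10, TMM factors, quasi-likelihood F-test, Benjamini-Hochberg), which was checked on simulated data. DESeq2 1.42.0, limma-voom (limma 3.58.1), other scalings and filters, a replicate block, a length correction and leave-one-out fits were alternatives. Log2 CPM used a prior count of 2. Members and lists were chosen with earlier results of these data known. Named genes were the members, other Slfn rows, called list genes (at most 4 in each direction, or the 2 most abundant where none was called), the drug and antibody targets and the 3 genes most correlated with each member. Outside this rule, Irf7, Tyk2, Mrc1, the most abundant gene of a list, interferon ligands and list genes too low to test were named after their values were seen. Libraries of the same group differed by 33.7 to 160 times the chi-square expected from sampling, so none was a duplicate of another in its group.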

Additional observations from a re-analysis of the deposited data

Results flagged for a closer look

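In 3 of 64 groups of 4 values checked, 1 tumor stood far from the others, against about 3.2 expected when chance flags 1 group in 20. All 3 concerned mAb-DXd/IMQ replicate 3. Its Slfn5 level was 56.0 CPM, where the other treated tumors lay between 33.2 and 36.4 CPM (the gap took up 0.859 of the range). Its Slfn9 level was 127 CPM, with the others between 98.6 and 102 CPM (0.866 of the range). The summed dendritic cell markers, mostly Itgax, were at 147 CPM, with the others between 81.3 and 85.6 CPM (0.935 of the range). Without this tumor the log2 fold change of Slfn5 was 0.12 in place of 0.33.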

How the results depend on the processing

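Each of the 7 Schlafen log2 fold changes was recomputed under 20 alternatives. All 140 values kept the sign, and 0 were called (the rule of FDR alone cannot alter a fold change); single members reached an unadjusted p under 0.05 in 0 (Slfn3) to 6 (Slfn1) of the alternatives. The number of Schlafen genes called was 0 throughout. The summed difference of 137 CPM was 101 to 175 CPM with 1 tumor left out, and the difference per kilobase of 49.1 was 38.5 to 62.3. The number of all genes called moved more, from 197 to 787 with DESeq2, 358 with no filter (more genes tested) and 122 with the length correction, and the cause was not tested. With 1 tumor left out it ran from 10 to 203, with 111 without saline replicate 2, 10 without saline replicate 3, 11 without saline replicate 4, and 76, 88 and 12 without mAb-DXd/IMQ replicates 2, 3 and 4. Fewer tumors enter those fits. With the replicate block 14 genes were called, and 14 with the length correction and the replicate block. The numbers do not pair the tumors, which came from different mice. Deviations of same-numbered tumors correlated at -0.17 to 0.0794, and 1 of 4 saline tumors correlated best with its own number. Of the called genes 51.3% were higher, and 66.5% with upper quartile factors. Tlr7 turned from -0.20 to 0.20 without saline replicate 2 (-0.48 without saline replicate 1). With 4 tumors a group, intervals for Slfn4 spanned nearly 2 log2 units.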
